A study of Mus musculus with 8 samples.

Results

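The genes described here are those of the 5 enzyme complexes that make up the mitochondrial respiratory chain and the ATP synthase, chosen by name: symbols of the Nduf (a, b, c, s and v series), Sdh, Uqcr, Cox4 to Cox8 and Atp5 families. Ndufaf assembly factors were left out. They are 84 of the 34797 gene names on a mouse array, with 36 in complex I, 4 in complex II, 8 in complex III, 19 in complex IV and 17 in complex V. The study used C57BL/6 mice and compared c-kit+ cells of the heart with heart muscle, on 8 arrays in 4 groups of 2. CD45- cells were sorted as c-kit+/CD45- from primary cultures of left atrial appendage made with 0.25% trypsin and 0.1% collagenase D. CD45+ cells were sorted as c-kit+/CD45+ from primary cultures made with the weaker 0.05% trypsin and the same 0.1% collagenase D. P8 cells were the 8th-passage descendants of the c-kit+/CD45+ cells, and all 3 cell groups came from mice aged 8 to 12 weeks. The fourth group, LV, was tissue from the left ventricular wall of 12-week-old mice. Cultured cells and tissue were extracted with different reagents, so culture, dissociation, region of the heart and extraction cannot be told apart in any comparison with LV.

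The respiratory chain passes electrons from NADH, through complex I, or from succinate, through complex II, to coenzyme Q, then through complex III to cytochrome c and through complex IV to oxygen. Complexes I, III and IV pump protons across the inner mitochondrial membrane, and complex V uses the returning protons to make ATP. Most subunits are encoded in the nucleus and a small set in mitochondrial DNA. Heart muscle is packed with mitochondria, and striated muscle uses its own isoforms of 3 complex IV subunits.

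Values are log2 of the probe signal minus the 75th percentile of its array, so 0 is the level of a probe at that percentile and a step of 1 is a 2-fold change. They compare shares of an array's signal. The 75th percentile lay between 426 and 976 intensity units, and 51.5% to 69.9% of spots were well above background. Of 18 cardiomyocyte markers all were lower in each cell group than in LV. The log2 of their summed signal was 12.8 and 12.7 on the LV arrays and 0.25 to 2.74 on the cell arrays. Myoglobin (Mb), titin (Ttn) and phospholamban (Pln) were not well above background on any cell array, and 7 to 11 of the 18 markers were so on each. The 5 red blood cell markers were lower too, with summed levels of 10.3 and 9.60 in LV and -1.94 to -1.19 in the cells. The LV arrays differed from each other in atrial genes, with Myl7 at -2.55 and 5.21 and Nppa at 5.95 and 8.78. Of 13 macrophage markers 12 were lower in CD45- and in P8 cells than in CD45+ cells. Itgam was the exception, at 4.31 and 4.29 in CD45+ cells, 5.83 and 6.06 in CD45- cells, and 4.79 and 4.82 in P8 cells, and it made up most of the P8 sum. The 13 summed to 10.27 and 10.25 in CD45+ cells, 5.93 and 6.82 in CD45- cells, and 5.13 and 5.14 in P8 cells. The 12 fibroblast markers summed to 10.6 on both CD45- arrays, 9.34 and 9.28 in CD45+ cells, and 10.1 on both P8 arrays. In tissue, fewer cells of a type and less RNA per cell cannot be told apart.

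Transcripts of the subunits were abundant in the ventricle and lower, to nearly the same degree, in all 3 cell groups. Of the 84 genes, 77 lay below both LV arrays on all 6 cell arrays. Above both lay 3 (Cox4nb, Cox6a1 and Cox8a), and 4 (Cox4i2, Cox6b2, Cox7a2l and Cox8c) overlapped. The same count was not made over all gene names, so these numbers only describe the members. The median over all 84 genes was 7.73 and 7.26 on the LV arrays. It was 5.18 and 4.78 in CD45- cells, 4.88 and 4.85 in CD45+ cells, and 4.82 on both P8 arrays. Together the 84 genes gave 7.23% and 6.05% of the summed signal of all gene names in LV, and 1.08% to 1.33% on the cell arrays. Even so, the median subunit gene stood at the 95.2nd percentile of all gene names in CD45- cells, the 94.99th in CD45+ cells, the 95.2nd in P8 cells and the 99.2nd in LV. In each comparison with LV 82 of the 84 could be tested. Cox8c was not well above background on any array, and Cox7b2 was so on only 1 LV array.

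**Figure D1:**
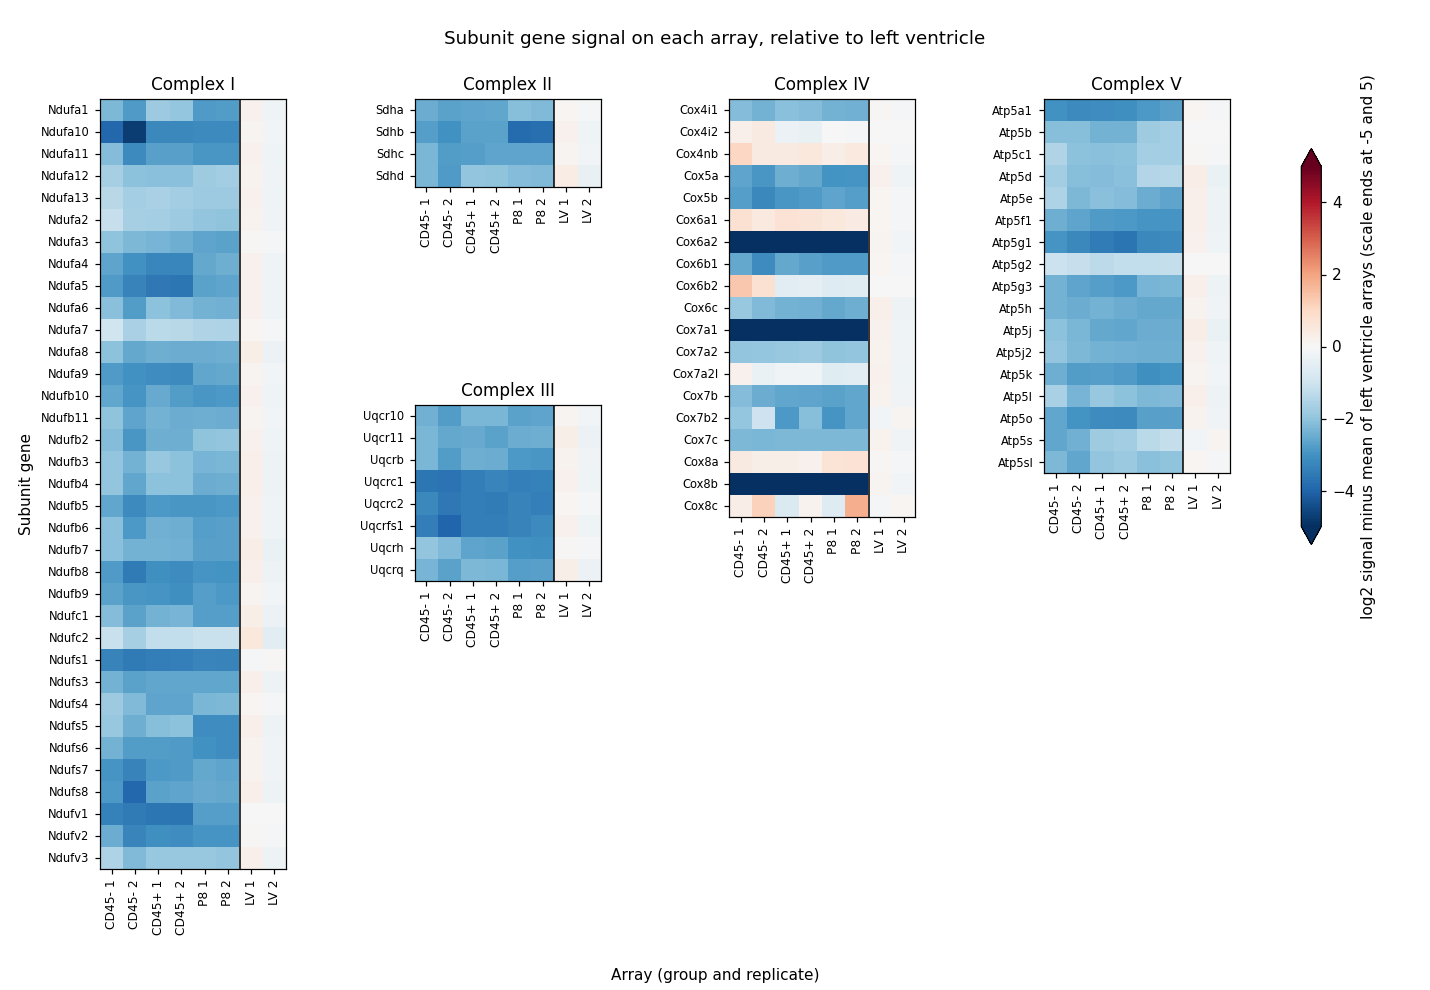
Each row is a subunit gene (all but 1 of the 84) and each column 1 array; colour is the log2 signal minus the mean of the 2 LV arrays, blue for lower and red for higher, with the scale ending at -5 and 5. Rows are blue across all 6 cell arrays in complexes I, II, III and V, and the rows that turn red in cells are in complex IV; Cox8c, one of them, is not well above background on any array.

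A gene was called at an adjusted p under 0.05 and a log2 difference of at least 1. In CD45- cells against LV, 76 subunit genes were lower and 1 was higher, where 19.2% of the 22284 genes tested were lower and 20.3% higher. The members' median log2 difference was -2.49, beside 0.06 over all genes tested. In CD45+ cells 76 were lower and 0 higher, against 19.8% and 18.3% of all genes, with a median of -2.46 beside -0.02. At an unadjusted p under 0.05, 1 member was higher there, Cox6a1, at 0.67 with an adjusted p of 0.0457, under the minimum difference. In P8 cells 75 were lower and 0 higher, against 18.8% and 20.3%, with a median of -2.58 beside 0.05. There 1 member was higher at an unadjusted p under 0.05, Cox8a, at 0.71 with an adjusted p of 0.028. The count at that looser threshold in CD45- cells and the share of all genes are not given, so it does not compare the cell groups. The 3 comparisons share the same LV arrays, so their values stand side by side and do not support each other. Where nothing says that the 2 samples of a group came from separate cultures or animals, these p-values measure only the spread between the samples.

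The medians of the 5 complexes lay close together. In CD45- cells the median log2 differences from LV were -2.53 for complex I, -2.57 for II, -2.56 for III, -2.26 for IV and -2.42 for V. In CD45+ cells they were -2.53, -2.64, -2.61, -2.26 and -2.37 in the same order, and in P8 cells -2.62, -2.41, -2.97, -2.40 and -2.44. All genes tested of complexes I, II, III and V were lower than LV in all 3 cell groups, apart from Ndufc2 in P8 cells. Complex IV was the least uniform, with 11 of its 17 tested genes lower in each cell group, and it held both the largest differences of the set and all the members above LV.

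**Figure D2:**
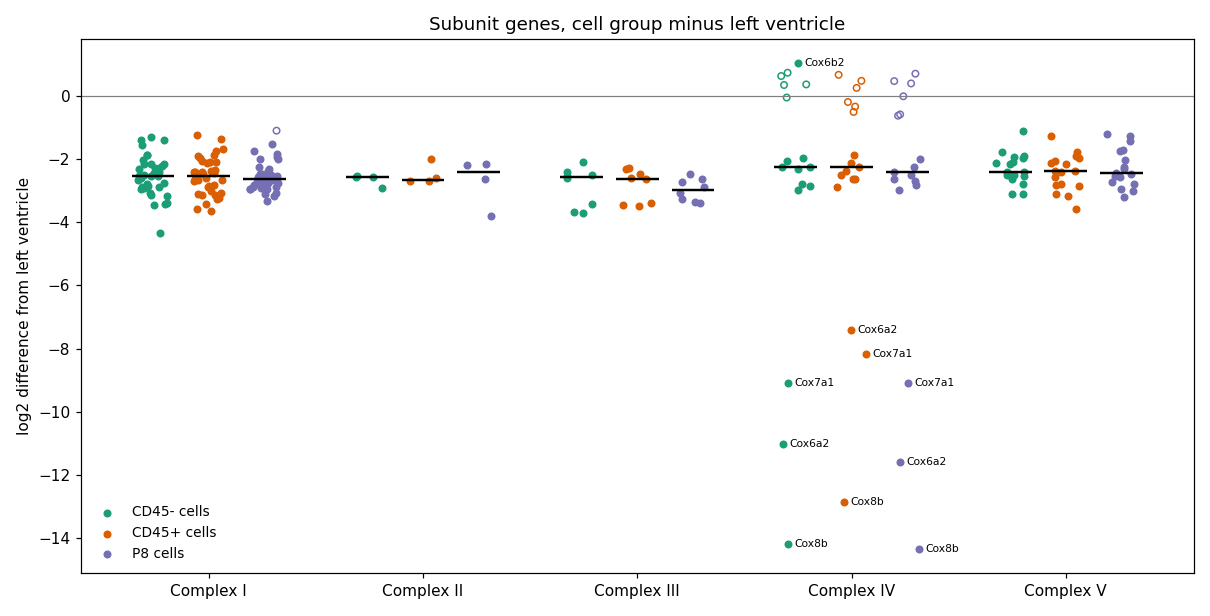
Each point is 1 tested subunit gene, placed by complex, with its log2 difference from LV for CD45-, CD45+ and P8 cells; filled points passed the threshold, open points did not, and black bars are medians. Medians lie between -2.97 and -2.26 in every complex, and the 3 genes far below the rest are Cox6a2, Cox7a1 and Cox8b; Cox8b is drawn at its measured value, which is not well above background in CD45- and P8 cells.

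Complex I takes electrons from NADH on a set of catalytic core subunits surrounded by many accessory ones. The 7 nuclear core genes had median log2 differences of -3.14, -3.08 and -2.75 in CD45-, CD45+ and P8 cells, beside -2.42, -2.41 and -2.57 for the other 29. Ndufv1, which holds the flavin that accepts electrons from NADH, read 8.52 and 8.49 in LV, 5.12 and 4.99 in CD45- cells, 4.88 and 4.86 in CD45+ cells, and 5.76 on both P8 arrays. Its levels in LV did not overlap those of any cell group and were 10.98-fold, 12.5-fold and 6.73-fold higher, in the order CD45-, CD45+ and P8 (log2 differences -3.46, -3.64 and -2.75, each with an SE of 0.19). Ndufs1, the largest iron-sulfur subunit, read 7.41 and 7.49 in LV and between 3.92 and 4.16 on the 6 cell arrays, a difference of -3.43 in CD45- cells (adjusted p = 0.000181). Its cell arrays lay close together and far from LV.

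Ndufa10, an accessory subunit, had the largest difference of complex I in CD45- cells, at -4.34 ± 0.30 (SE, 20.3-fold, adjusted p = 0.000296). It read 5.89 and 5.65 in LV, 1.83 and 1.04 in CD45- cells, 2.53 and 2.55 in CD45+ cells, and 2.60 and 2.59 in P8 cells. The smallest differences in CD45- cells were those of 2 other accessory genes, Ndufa7 and Ndufc2. Ndufa7 read 7.17 and 6.97 in LV and 5.47 to 6.09 in the cells (CD45- difference -1.29, adjusted p = 0.0101). Without CD45- replicate 2 it was -0.98 and no longer passed, and without either CD45+ replicate its CD45+ difference did not pass (adjusted p = 0.0548 and 0.0645). Ndufc2 read 6.37 and 5.33 on the LV arrays and 4.18 to 4.75 in the cells, so LV exceeded every cell array but varied by 1 log2 unit within itself. Its differences were -1.40 (adjusted p = 0.028), -1.23 (0.0452) and -1.10 (0.0619), and without LV replicate 1 the CD45- and CD45+ calls were lost, at -0.89 and -0.71. The CD45- call was also lost without CD45- replicate 2 (adjusted p = 0.0991), and the CD45+ call without either CD45+ replicate (0.152 and 0.17). Without LV replicate 2, Ndufc2 passed in P8 cells too, at -1.61. Ndufa4, listed by its name in complex I and now placed in complex IV, read 7.75 and 7.31 in LV and 4.26 to 5.08 in the cells.

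Complex II is succinate dehydrogenase, which also serves the citric acid cycle. Sdha, its flavoprotein, read 6.89 and 6.67 in LV and 4.09 to 4.67 in the cells, with differences of -2.58, -2.61 and -2.16. Sdhb, its iron-sulfur subunit, read 8.45 and 8.03 in LV, 5.47 and 5.20 in CD45- cells, 5.55 and 5.57 in CD45+ cells, and 4.39 and 4.48 in P8 cells. On this probe the P8 arrays were the lowest and did not overlap the other cells (P8 against LV -3.81 ± 0.23 SE, 14.0-fold, adjusted p = 0.000216). A second, dimmer Sdhb probe read 2.36 and 2.49 in P8 cells and 2.70 and 2.06 in CD45- cells, so there these groups overlapped. The membrane anchors Sdhc and Sdhd fell by 2.55 and 2.57 log2 units in CD45- cells, by 2.70 and 1.99 in CD45+ cells, and by 2.63 and 2.18 in P8 cells.

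In complex III, which carries electrons from coenzyme Q to cytochrome c, the core genes Uqcrc1 and Uqcrc2 and the Rieske iron-sulfur protein Uqcrfs1 had medians of -3.66, -3.46 and -3.37. The 5 small subunits had medians of -2.49, -2.46 and -2.73. Uqcrfs1 read 7.88 and 7.43 in LV, 4.19 and 3.70 in CD45- cells, 4.18 and 4.19 in CD45+ cells, and 4.31 and 4.47 in P8 cells (CD45- difference -3.71 ± 0.27 SE, 13.04-fold, adjusted p = 0.000331). Uqcrc1 read 6.99 and 6.57 in LV and 3.07 to 3.47 in the cells. Uqcrh, the hinge protein that binds cytochrome c1, read 8.41 and 8.27 in LV, 6.39 and 6.12 in CD45- cells, 5.72 and 5.68 in CD45+ cells, and 5.30 and 5.26 in P8 cells. Its differences, -2.09, -2.64 and -3.06, ran in that order without overlap of the arrays, while no difference among the cell groups met both criteria (P8 against CD45- cells -0.97, adjusted p = 0.0306). Uqcr11, another small subunit, fell by 2.42 log2 units in CD45- cells.

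Complex V consists of a catalytic F1 head, a stalk and a membrane ring of c subunits. The 5 head genes had medians of -1.95, -2.14 and -1.75, the 7 stalk and membrane genes -2.42, -2.56 and -2.58, and the 3 c-ring genes -2.49, -2.80 and -2.30. Atp5a1, the alpha subunit of the head, read 8.97 and 8.77 in LV and 5.67 to 6.14 in the cells (CD45- difference -3.11 ± 0.20 SE, 8.63-fold, adjusted p = 0.000248). Atp5b, the catalytic beta subunit, read 9.39 and 9.34 in LV, 7.25 on both CD45- arrays, less on the CD45+ arrays, and 7.58 and 7.65 in P8 cells, so it fell by 2.11, 2.36 and 1.75 log2 units. Atp5c1, the central stalk's gamma subunit, fell by 1.78, 2.06 and 1.71.

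Atp5g1, Atp5g2 and Atp5g3 encode the same mature c subunit behind different targeting sequences, and they differed in size of change. Atp5g1 read 9.19 and 8.72 in LV, 6.01 and 5.72 in CD45- cells, 5.45 and 5.32 in CD45+ cells, and 5.73 and 5.76 in P8 cells, differences of -3.09, -3.58 and -3.21. Atp5g3 differed by -2.49, -2.80 and -2.30. Atp5g2 read 7.93 and 7.99 in LV and 6.64 to 6.89 in the cells, and its differences of -1.10, -1.27 and -1.22 were the smallest of the complex in each cell group. A second Atp5g1 probe gave -0.12, -0.33 and -0.46, and the mean of both probes gave -1.61, -1.95 and -1.84. Atp5s and Atp5sl match the Atp5 name but are now called Dmac2l and Dmac2 and are not structural subunits. Both were lower in each cell group, with Atp5s at -2.49, -1.76 and -1.27.

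Complex IV, cytochrome c oxidase, is where the set divided. The 7 genes Cox4i1, Cox5a, Cox5b, Cox6b1, Cox6c, Cox7b and Cox7c were all lower than LV, with medians of -2.31, -2.50 and -2.63 in CD45-, CD45+ and P8 cells. Cox4i1, the form of subunit 4 found in most tissues, read 8.53 and 8.40 in LV and 6.05 to 6.38 in the cells (differences -2.26, -2.13 and -2.40). The heart and skeletal muscle isoforms of subunits 6a, 7a and 8 had by far the largest differences of the 82 genes tested. Their probes lie on chromosome 7 (build mm9, per the array's design) at chr7:135349160-135349219 for Cox6a2, chr7:30970337-30970948 for Cox7a1 and chr7:148084852-148084911 for Cox8b. Cox6a2 read 9.27 and 9.03 in LV, -3.02 and -0.75 in CD45- cells, 1.70 and 1.73 in CD45+ cells, and -2.37 and -2.50 in P8 cells. It was well above background on all 8 arrays and was 2089-fold lower in CD45- cells (-11.03 ± 0.69 SE, adjusted p = 0.000231), 172-fold in CD45+ cells and 3069-fold in P8 cells. Its CD45- arrays differed by over 2 log2 units from each other, and the difference was -9.89 without the first and -12.16 without the second. With another background correction (normexp) it was -10.40.

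Cox7a1 read 8.84 and 8.44 in LV, -0.23 and -0.69 in CD45- cells, 0.49 and 0.43 in CD45+ cells, and -0.46 and -0.41 in P8 cells. All 6 cell arrays lay near the 75th percentile of their array, and LV exceeded them 548-fold, 290-fold and 540-fold. Cox8b read 8.32 and 8.05 in LV. In CD45- cells it read -5.87 and -6.12 and in P8 cells -6.63 and -5.72, and in neither was it well above background on any array. There LV was at least 7129-fold and at least 15163-fold higher, taking as floor the lowest signal well above background on each array. The adjusted p-values of 5.19e-05 and 4.55e-05 belong to the measured differences of -14.18 and -14.35 and do not test these bounds. These floors hold for the processed signal alone: with normexp the log2 differences were -10.55 and -11.74, and in the authors' deposited table -12.54 and -12.52. In CD45+ cells Cox8b was well above background, at -5.11 and -4.25, a difference of -12.86 that became -11.70 in the authors' value table and -11.22 with normexp. The cardiomyocyte markers moved with these 3 genes in every comparison with LV, and other lists were lower in the cells too. Of 10 endothelial markers 7, 8 and 8 were lower in CD45-, CD45+ and P8 cells, with sums of 7.25 and 7.34 in LV and 4.31 to 5.36 in the cells. Of 4 tested brown or beige fat markers 3, 3 and 4 were lower, with sums over all 6 of 4.19 and 4.49 in LV and -4.20 to -1.24 in the cells. The part of these cell types in the result was not tested.

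The partner isoforms found in most tissues did not follow. Cox6a1, the partner of Cox6a2, read 7.06 and 6.88 in LV, 7.74 and 7.46 in CD45- cells, 7.68 and 7.60 in CD45+ cells, and 7.51 and 7.37 in P8 cells. All cell arrays were above LV, by 0.63, 0.67 and 0.47 (SE 0.21), and none met both criteria. Cox8a, the partner of Cox8b, read 6.89 and 6.73 in LV and 7.03 to 7.52 in the cells, differences of 0.37, 0.26 and 0.71 (SE 0.19) that did not pass. Cox7a2, the partner of Cox7a1, did fall. It read 6.92 and 6.53 in LV and 4.70 to 4.89 in the cells, differences of -1.95, -1.87 and -1.998. Cox7a2l overlapped LV in CD45- and CD45+ cells, lay below it in P8 cells, and differed by -0.05, -0.19 and -0.58 (SE 0.27), none of which passed.

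**Figure D3:**
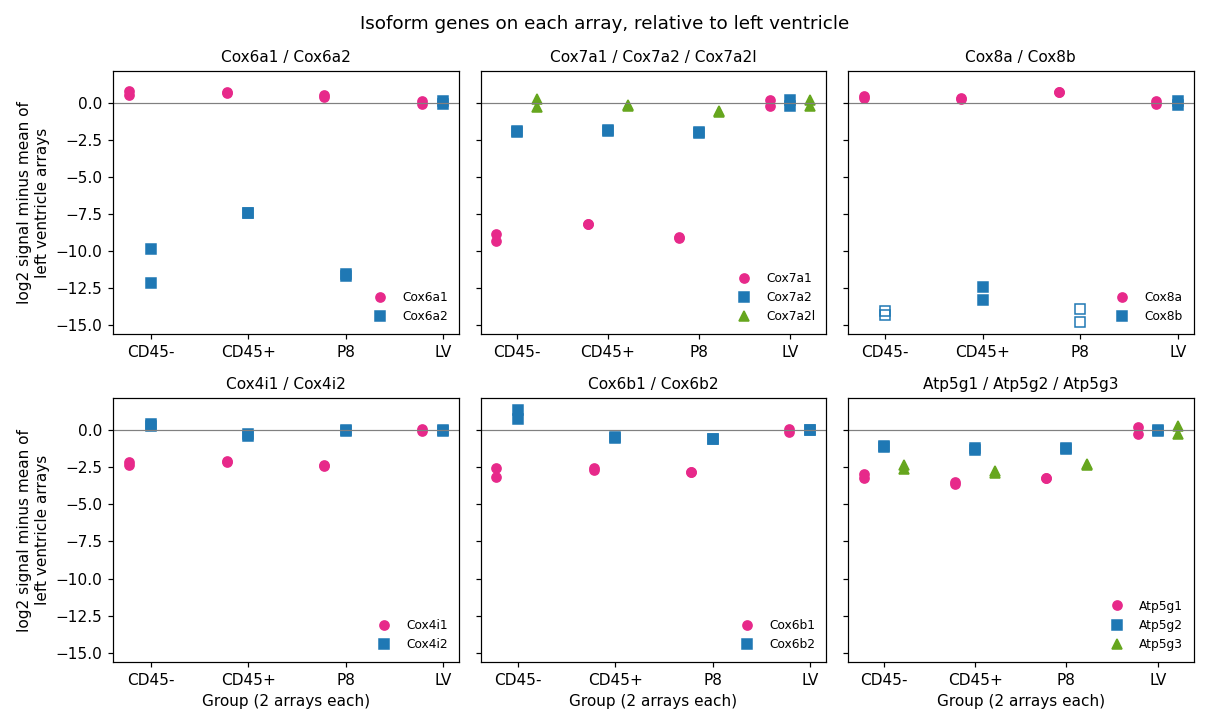
Each panel holds a family of isoform genes; points are single arrays (2 per group), placed by group, with the log2 signal minus the mean of the gene's own LV arrays on the vertical axis. Open points mark groups without both arrays well above background (Cox8b in CD45- and P8 cells). Cox6a2, Cox7a1 and Cox8b lie at -14.35 to -7.43 as measured group means, while the cell arrays of Cox6a1 and Cox8a lie above the zero line.

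The other isoforms with restricted expression took no common course. Cox4i2, known from lung, read 0.25 and 0.19 in LV and -0.17 to 0.67 in the cells, with differences of 0.35, -0.33 and -0.01. Its ubiquitous partner Cox4i1 was lower in the same comparisons. Cox6b1, the common form of subunit 6b, read 5.52 and 5.30 in LV and 2.29 to 2.85 in the cells. Cox6b2, its testis form, read -1.21 and -1.18 in LV, 0.15 and -0.45 in CD45- cells, -1.73 and -1.67 in CD45+ cells, and -1.83 and -1.81 in P8 cells. It was the only member called higher than LV, in CD45- cells (1.04 ± 0.25 SE, 2.06-fold, adjusted p = 0.0186). That call was lost without CD45- replicate 1 (0.74), without either LV replicate (adjusted p = 0.0673 and 0.0654), with normexp (0.93), with centring on bright probes (0.90) and with only the arrays of the 2 groups (adjusted p = 0.109). Cox4nb is not a subunit: it neighbours Cox4i1 and is now called Emc8. It read 0.88 and 0.66 in LV and 1.10 to 1.81 in the cells.

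To describe the isoform genes outside the expression data, promoters were taken from RefSeq (build GRCm38.p6). It held 69 of the 84 genes by symbol, in windows of 250 bases before to 50 after the start. Cox6a2 was not among them. The 250 bases before the start are printed 5′ to 3′ along the gene's strand, with capitals marking matches to 5 short motifs known from respiratory chain promoters or core promoters: the NRF1 core CGCATGCG, the ETS or GABP site CCGGAAG, the ERR site TCAAGGTCA, the YY1 site AAGATGGCG and the TATA box TATAAA, searched on both strands. The muscle isoforms come first, then their partners, then a complex V stalk gene and a complex I core gene that fell with the rest:
Cox7a1: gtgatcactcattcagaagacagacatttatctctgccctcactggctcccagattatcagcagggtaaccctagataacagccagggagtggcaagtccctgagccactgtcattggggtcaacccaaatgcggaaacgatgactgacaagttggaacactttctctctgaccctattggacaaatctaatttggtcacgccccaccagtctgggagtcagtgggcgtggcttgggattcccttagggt
Cox8b: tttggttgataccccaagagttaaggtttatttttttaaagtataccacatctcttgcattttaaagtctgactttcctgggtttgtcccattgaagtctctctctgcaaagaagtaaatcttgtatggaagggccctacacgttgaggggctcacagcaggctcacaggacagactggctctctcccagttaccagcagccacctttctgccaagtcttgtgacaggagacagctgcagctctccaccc
Cox6a1: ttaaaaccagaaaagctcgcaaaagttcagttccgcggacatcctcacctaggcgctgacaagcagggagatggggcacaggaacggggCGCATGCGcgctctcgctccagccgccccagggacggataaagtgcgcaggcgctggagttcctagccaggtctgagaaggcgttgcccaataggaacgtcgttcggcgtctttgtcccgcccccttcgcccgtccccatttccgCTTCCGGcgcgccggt
Cox7a2: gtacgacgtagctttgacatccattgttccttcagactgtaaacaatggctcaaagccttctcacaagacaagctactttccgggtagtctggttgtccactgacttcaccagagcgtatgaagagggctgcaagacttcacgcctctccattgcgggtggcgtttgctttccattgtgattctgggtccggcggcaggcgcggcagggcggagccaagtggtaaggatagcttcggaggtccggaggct
Cox8a: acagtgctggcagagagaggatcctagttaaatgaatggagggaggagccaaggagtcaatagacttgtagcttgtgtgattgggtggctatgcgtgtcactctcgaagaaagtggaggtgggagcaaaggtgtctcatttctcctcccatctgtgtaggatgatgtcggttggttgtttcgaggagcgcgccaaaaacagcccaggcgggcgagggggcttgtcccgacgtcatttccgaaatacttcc
Atp5j, other start: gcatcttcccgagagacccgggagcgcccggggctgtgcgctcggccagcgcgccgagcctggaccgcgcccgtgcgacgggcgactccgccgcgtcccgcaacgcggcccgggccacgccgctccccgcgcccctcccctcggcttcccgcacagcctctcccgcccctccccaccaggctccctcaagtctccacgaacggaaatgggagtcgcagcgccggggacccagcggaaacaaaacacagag
Atp5j: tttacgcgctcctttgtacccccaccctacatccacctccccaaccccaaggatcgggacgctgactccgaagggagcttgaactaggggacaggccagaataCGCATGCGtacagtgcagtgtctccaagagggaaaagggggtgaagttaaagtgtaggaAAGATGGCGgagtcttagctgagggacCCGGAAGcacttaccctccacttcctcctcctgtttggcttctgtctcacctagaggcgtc
Ndufs3: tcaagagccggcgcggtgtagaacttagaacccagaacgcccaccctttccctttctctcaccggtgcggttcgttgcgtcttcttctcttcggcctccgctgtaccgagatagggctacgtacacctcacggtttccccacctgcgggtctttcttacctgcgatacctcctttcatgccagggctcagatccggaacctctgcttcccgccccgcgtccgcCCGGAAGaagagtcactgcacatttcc
The Cox7a1 sequence (chr7:30183921-30184170, plus strand) and the Cox8b sequence (chr7:140900447-140900696, minus strand) held no match in the bases shown and 4 and 1 CG dinucleotides. A TATA box match of Cox8b lies in the 50 bases after the start, which are not printed. An ETS match of Cox8a ends in those bases and may begin within the bases shown. Cox6a1 (chr5:115348959-115349208, minus) held an NRF1 core and, on the other strand, an ETS site, with 26 CG dinucleotides. Cox7a2 (chr9:79759854-79760103, minus) and Cox8a (chr19:7217617-7217866, minus) held no match in the bases shown, with 14 and 11 CG dinucleotides. Atp5j (chr16:84834977-84835226, minus), which encodes coupling factor 6 of the stalk, held an NRF1 core, a YY1 site and an ETS site, and at its other listed start (chr16:84835626-84835875) no match and 35 CG dinucleotides. Ndufs3 (chr2:90904722-90904971, minus), a core subunit of complex I, held an ETS site. The median over all 75 windows of the 69 genes was 14 CG dinucleotides in these 250 bases, beside 6 over all 32851 promoters.

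Over the whole 300-base windows, the NRF1 core was in 12% of the 75 member promoters and 1.87% of all 32851. The ETS site was in 21.3% against 8.86%, the YY1 site in 12% against 1.40%, the ERR site in 2.67% against 0.423%, and the TATA box in 10.67% against 13.6%. The NRF1 core was in 9 genes, among them Uqcrc1, Ndufa8, Ndufa11, Cox6a1 and Atp5g2, and the ETS site in 16, among them Sdhb, Sdhd, Uqcrh and Cox8a. Genes holding these letters thus included both those that fell and those that did not, and a match is a description of sequence only.

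Genes around the complexes gave a less uniform picture. The 13 subunits encoded in mitochondrial DNA had medians of -2.09, -2.35 and -2.16 in CD45-, CD45+ and P8 cells, with 10, 10 and 11 of them lower. ND1, of complex I, read 7.37 and 7.31 in LV and 2.81 to 4.05 in the cells. COX1, the catalytic subunit of complex IV, read 9.72 and 9.38 in LV and 8.70 to 9.53 in the cells, with differences of -0.36, -0.54 and -0.80 (SE 0.30) that did not pass. COX2 passed in P8 cells alone (-1.06, adjusted p = 0.0176), beside -0.22 and -0.91 in CD45- and CD45+ cells. ND6, the only one encoded on the opposite strand from the rest, read -0.74 and -1.96 in LV, 1.20 and 2.76 in CD45- cells, 0.90 and 0.09 in CD45+ cells, and 0.85 and 0.92 in P8 cells. It was higher in CD45- cells (3.33, adjusted p = 0.00845) and P8 cells (2.23, adjusted p = 0.0345) and did not pass in CD45+ cells (1.85, adjusted p = 0.0636).

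Of the 18 citric acid cycle genes, 18, 18 and 17 were lower, with medians of -3.11, -3.20 and -3.09. Dlat, of the pyruvate dehydrogenase complex, was at -4.01, -3.93 and -4.02, and Idh3b, of isocitrate dehydrogenase, at -5.06, -3.57 and -3.75. The exception was Suclg2, a succinyl-CoA ligase subunit, in P8 cells (-0.77, adjusted p = 0.175). Among 10 tested electron carriers and subunits outside the name rule, 5, 7 and 7 were lower and 1, 1 and 0 higher. Etfdh, which feeds electrons from fatty acid oxidation to coenzyme Q, was at -4.06, -4.05 and -3.96. Cyc1, cytochrome c1 of complex III, read 7.62 and 7.29 in LV and 3.47 to 3.95 in the cells, and Cycs, cytochrome c itself, 8.01 and 7.501 against 4.30 to 4.59. Ndufa4l2, a hypoxia-responsive relative of Ndufa4, ran across the pattern. It read 2.37 and 2.06 in LV, 5.56 and 5.32 in CD45- cells, 3.60 and 3.70 in CD45+ cells, and -2.39 and -2.06 in P8 cells, so it was higher in CD45- cells (3.23) and CD45+ cells (1.43) and lower in P8 cells (-4.44, adjusted p = 0.000151).

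Of 11 genes of coenzyme Q synthesis 8, 10 and 9 were lower, and 1 was higher, Coq3, a methyltransferase, in CD45- cells (1.01, adjusted p = 0.0465), beside -2.99 and -3.15 in CD45+ and P8 cells. Coq9, which binds lipid for the same pathway, was at -5.29, -4.38 and -4.31. Of 30 assembly factors 16, 16 and 15 were lower and 0 higher, among them Ecsit, a complex I factor, at -3.20, -3.29 and -2.68. Of 18 tested genes of mitochondrial pores, import, carriers, membrane shape and chaperones 11, 12 and 10 were lower, and Tomm20, an import receptor, was higher in P8 cells (1.29). Mfn2, a mitofusin that joins mitochondria, was at -3.44, -3.69 and -4.41. Among 19 regulators of mitochondrial biogenesis 11, 12 and 6 were lower and 3, 0 and 1 higher. Ppargc1a, the coactivator PGC-1 alpha, read 4.01 and 3.26 in LV and was not well above background in CD45- or CD45+ cells, where LV was at least 305-fold and at least 518-fold higher. In P8 cells it was measured, at -3.86 and -3.44. Esrra, a nuclear receptor that works with it, fell by 2.49, 2.01 and 1.64 log2 units. Differences were larger for Esrrg, Esrrb and Ppargc1b of the same list. For Esrrg, LV was at least 64.2-fold and at least 109-fold above CD45- and CD45+ cells. For Ppargc1b, LV was at least 56.0-fold above CD45- cells. Esrrb read 2.21 and 2.80 in LV and -5.45 to -4.03 on the cell arrays, and was not well above background on CD45- replicate 2. Nrf1 (1.04), Gabpb1 (1.20) and Pprc1 (1.42), a factor, a GABP subunit and a coactivator of the same program, were higher in CD45- cells, and Pprc1 was also higher in P8 cells (1.01).

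**Figure D4:**
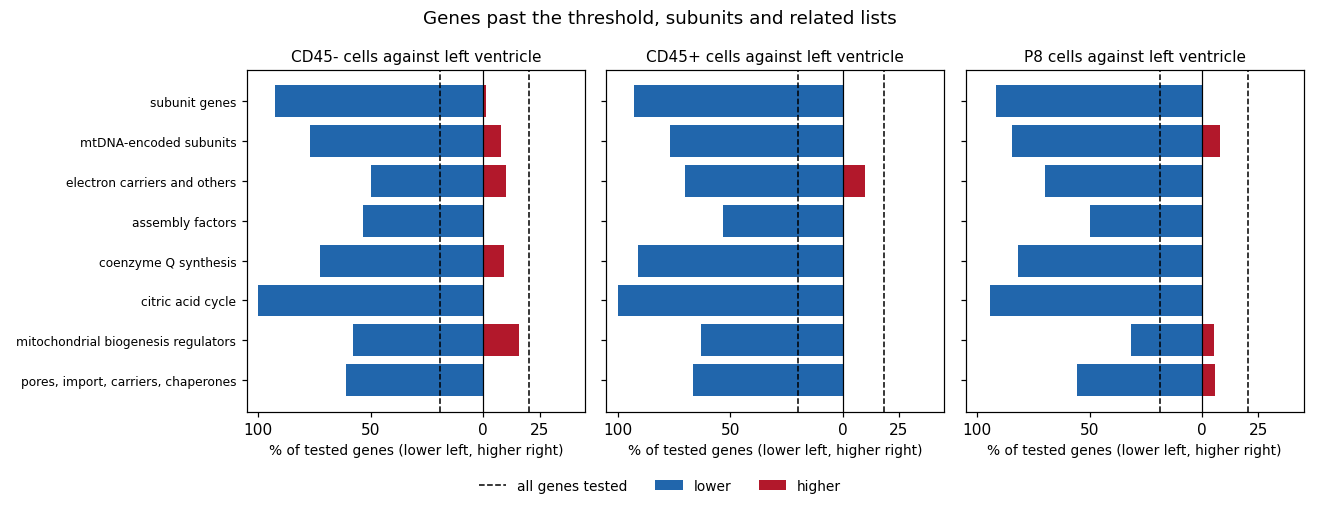
Bars give the percentage of tested genes of each list that were lower (left of zero) or higher (right of zero) than LV, in CD45-, CD45+ and P8 cells; dashed lines give the same percentages over all genes tested. The subunit genes and the citric acid cycle reach furthest to the left in each panel, and the assembly factors and regulators lie nearer the dashed lines.

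Among the 3 cell groups themselves the subunits differed little. The range of the 3 group means had a median of 0.40 log2 units over the 82 genes, and it was under 1 for 75 of them. In CD45- against CD45+ cells 2 genes were lower and 1 higher, where 10.5% and 11.2% of 21522 genes were. In P8 against CD45+ cells 4 were lower and 0 higher, against 10.9% and 12.6% of 23440. At an unadjusted p under 0.05, 5 were higher (Atp5b, Ndufa4, Ndufa5, Ndufa9 and Ndufv1). Among the members lower at that threshold were the 4 called and Cox7a1 (-0.90, adjusted p = 0.0495). The full count of lower members and the share of all genes are not given, so no upward group is read from these 5. In P8 against CD45- cells, over 81 testable members, 1 was lower and 1 higher, against 6.98% and 6.97% of 22774. The median log2 differences of the members were 0.05, -0.04 and -0.09 in the same order. Medians this close to 0 changed sign with the scaling or the array left out.

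Each of these calls concerned a named gene. Cox6a2 was lower in CD45- (-3.60 ± 0.69 SE, adjusted p = 0.0165) and P8 cells (-4.16 ± 0.69, adjusted p = 0.00911) than in CD45+ cells, whose arrays did not overlap the others. Cox8b was lower in P8 than in CD45+ cells (adjusted p = 0.0473), at least 2.04-fold (1.03 log2 units) on the processed signal alone. With normexp the log2 difference was -0.52 and in the authors' deposited table -0.82, both short of that floor. Of the 15 alternatives tried 11 ended that call. The macrophage markers were high on the same CD45+ arrays, and their part in the result was not tested. The summed cardiomyocyte markers read 0.93 and 1.03 in CD45+ cells, 0.25 and 0.97 in CD45- cells, and 2.64 and 2.74 in P8 cells. Most of the P8 sum was Tnnt2, at 2.41 and 2.42 there, -0.36 and -0.09 in CD45+ cells, and -2.08 and -0.43 in CD45- cells. Mybpc3 was highest in CD45+ cells, at -1.85 and -1.80, against -2.23 and -4.56 in CD45- cells and -4.16 and -3.30 in P8 cells. Myh7 went the other way, at -4.16 and -4.24 in CD45+ cells, -3.26 and -3.53 in CD45- cells, and -3.75 and -3.60 in P8 cells. Of 9 cardiomyocyte markers tested against CD45+ cells, 0 were lower and 0 higher in CD45- cells. In P8 cells 0 of 9 were lower and 2 higher. The part of cardiomyocyte RNA in the result was not tested. Cox6b2 was higher in CD45- cells than in CD45+ (1.55 ± 0.25, adjusted p = 0.0104) and P8 cells (1.66 ± 0.25, adjusted p = 0.0123), with no overlap of arrays.

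Sdhb was lower in P8 than in CD45+ cells (-1.12 ± 0.23, adjusted p = 0.019), and its second probe gave 2.43 against 3.35 as group means. Ndufs5, an accessory subunit of complex I, was lower in P8 cells (-1.02 ± 0.28, adjusted p = 0.0451), with arrays at 4.54 and 4.52 against 5.52 and 5.58. Of 16 alternatives 9 ended that call, among them the authors' deposited table (-0.86), quantile normalization (-0.93), normexp (-0.99) and no filter on dim probes (adjusted p = 0.0642). Ndufa10 was lower in CD45- than in CD45+ cells (-1.11 ± 0.30, adjusted p = 0.0448) and without CD45- replicate 2 differed by -0.71. The replicate block (adjusted p = 0.0519) and no filter on dim probes (0.0674) also ended that call. Atp5s was higher in P8 than in CD45- cells (1.22 ± 0.22, adjusted p = 0.0194), and with normexp the difference was 0.52 and did not pass. No call among the cell groups held when either array of the CD45+ group was left out of a comparison with it, or either P8 array out of P8 against CD45-. The sizes hardly moved for several genes while the adjusted p rose: without CD45+ replicate 1 and 2, Cox6a2 in CD45- cells was at -3.62 and -3.59, Cox6b2 at 1.51 and 1.58, and Sdhb in P8 cells at -1.13 and -1.11. With the first or the second CD45- array left out, 5 members passed in P8 against CD45- cells, and without CD45- replicate 1, 5 passed against CD45+ cells.

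**Figure D5:**
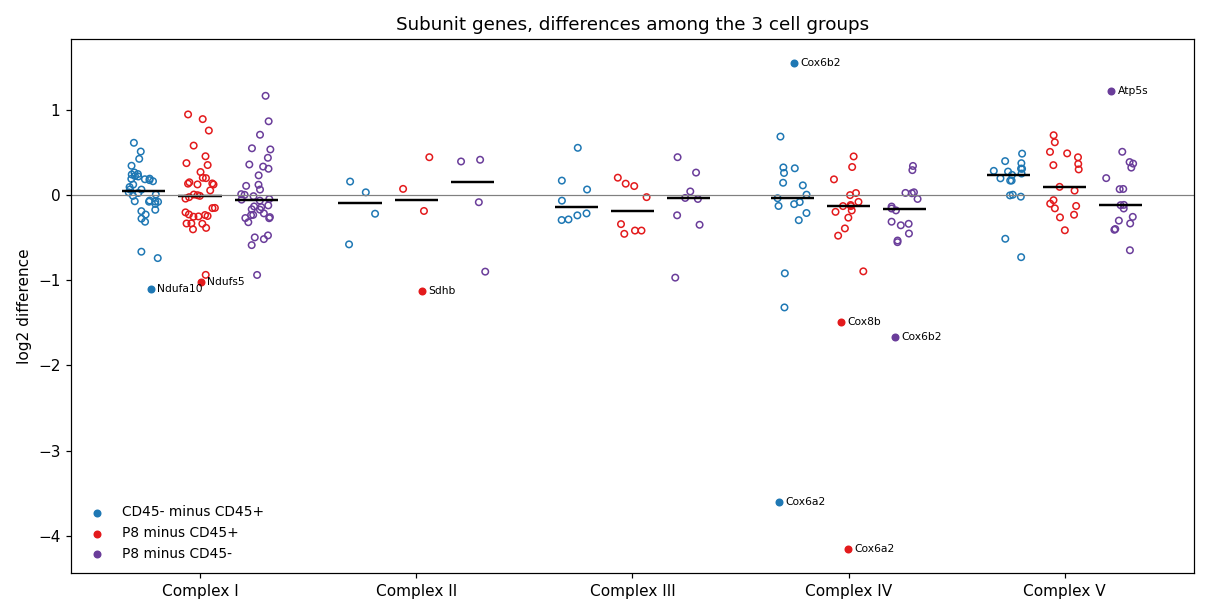
Each point is 1 tested subunit gene, placed by complex, with its log2 difference between 2 cell groups; filled, named points passed the threshold, open points did not, and black bars are medians. Most points lie within 1 of zero, and the named points are those given in the text.

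The precision of these values was not the same in every group. Over the 81 members well above background on all 8 arrays, the pooled SD between the 2 arrays of a group was 0.37 in CD45- cells, 0.058 in CD45+ cells, 0.046 in P8 cells and 0.29 in LV. In CD45- cells 76 of the 81 were lower on replicate 2 than on replicate 1, with a median shift of -0.38, and in LV 77 of 81 were, with a median shift of -0.37. The corresponding counts were 50 in CD45+ cells and 30 in P8 cells, with median shifts of -0.03 and 0.01. All genes well above background shifted by a median of -0.08 in CD45- cells and -0.07 in LV.

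Probes of 1 gene mostly agreed. Of the 84 genes 29 had more than 1 probe, and 39 of the 43 further probes were lower than LV in all 3 cell groups. In 9 genes a further probe lay over 1 log2 unit from the one used. Beside Atp5g1, the clearest was Ndufv3, a complex I subunit, whose probe in use fell by 1.87, 1.90 and 1.92 log2 units. Its 2 further probes, both dimmer, gave 0.28, -0.34 and 0.39, and 0.13, 1.29 and 0.08, and the mean of the 3 did not pass. For Ndufa3 and Ndufb5, both of complex I, dim further probes gave smaller differences of the same sign.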

How the data were processed

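Total RNA of 8 samples (200 ng each, Cy3) was hybridised to 1-colour Agilent arrays on 1 slide with 1 scan date. The deposited scanner files hold spot intensity from Feature Extraction 10.7 (Agilent; named in the submitters' processing notes), as a processed signal after background subtraction, per the file headers. The authors' deposited value table holds log2 values with column medians of 6.26 to 6.28, and served as an alternative. No source used here names its software. Per array, 3671 control spots of 62976 and 167 to 248 outlier spots were left out, and 0 were saturated. Spots of a probe were averaged (55681 probes) and the probe with the highest mean represented a gene name. The values of 1 member are in the counts and medians and are not reported here singly. Symbols are those of the array, checked against RefSeq for 81 of 84 members.

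Each processed signal was put on the log2 scale after centring its array at the 75th percentile. All 8 arrays were fitted with limma 3.58.1 (R 4.3.3), 1 mean per group, and tested two-sided with Benjamini-Hochberg adjustment over every gene that stood well above background on both arrays of either group compared. Every SE rests on the pooled spread (4 residual and 5.88 total degrees of freedom). With 2 arrays per group the number of arrays limits the precision. The fit was tested on simulated data. The members and gene lists were chosen with earlier results of these data known. Named genes are, per complex, the 2 highest and 2 lowest differences of CD45- from LV, the core and isoform genes, calls among cells, members near background or with disagreeing probes, and the largest calls of each list. Replicate numbers were not treated as pairs in the main fit. Correlations of replicate deviations ran from -0.20 to 0.19 between groups, which cannot settle whether samples were paired. Alternatives covered scaling, background, filter, probe choice, thresholds, arrays in the fit, weights, the replicate block and each array left out.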

Additional observations from a re-analysis of the deposited data

How the results depend on the processing

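The counts of members lower or higher than LV stayed within 73 to 78 (CD45-), 74 to 77 (CD45+) and 74 to 76 (P8) under all alternatives, and no difference that passed changed sign. Of the members that did not pass against LV, Cox4i2 in P8 cells (to 0.02 and 0.03) and Cox7a2l in CD45- cells (to 0.22 and 0.16) and CD45+ cells (to 0.01) changed sign with 1 array left out. Among the cell groups the counts were small and moved. At an adjusted p under 0.01 they were 0 in CD45- against CD45+ cells, 1 in P8 against CD45+ cells and 0 in P8 against CD45- cells. With only the arrays of the 2 groups in the fit, 0 members passed in CD45- against CD45+ cells and 0 in P8 against CD45- cells. In P8 against CD45+ cells 2 passed with normexp background correction, 2 in the authors' value table (1 lower, 1 higher), 2 with no filter on dim probes and 7 with no minimum difference. Leaving out 1 array gave 0 to 5 members in CD45- against CD45+ cells, 0 to 1 in P8 against CD45+ cells and 0 to 5 in P8 against CD45- cells. With the replicate block the counts were 77, 76 and 76 against LV and 2, 3 and 2 among the cells. Leaving both CD45- arrays out of the fit, an alternative chosen after seeing the data, gave 76 and 75 against LV and 3 in P8 against CD45+ cells. Of 396 recomputed complex medians 16 moved by more than the spread between replicates, 15 of them in P8 against CD45+ cells and 1 in complex IV of P8 against LV (-2.07). The median over all genes ranged from -0.26 to 0.33 with normexp and from -0.23 to 0.42 with no filter. Probes near background, such as Cox8b in CD45- and P8 cells, bound a difference only from below.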
